A study of Mus musculus with 10 samples.

Results

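Complement and clotting proteins are made mainly by hepatocytes and secreted into plasma, and 43 of their genes were followed here in livers that had passed through a knockdown of Sod2 in utero. The genes were taken from a list of 18 complement and 25 clotting genes, and each was read from the transcript cluster (a group of array probes for 1 transcript region) with the highest mean that carried that gene symbol and no other. Of the 43 genes, 38 were measured in this way, 15 of complement and 23 of clotting, out of 22180 genes with a symbol of their own on the array. C1s was found under its current symbol C1s1, the only one with more than 1 cluster. Masp2 and Klkb1 share their cluster with a neighbouring gene, and C3, Cfd and Cpb2 had no cluster of that symbol in the annotation. These 5 genes were not analysed here. All 38 measured genes passed the filter on low values, which left 13308 genes to be tested.

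In the complement system, convertases split C3 and C5. They are formed through serine proteases of C1, of mannose-binding lectin complexes or of the alternative pathway (factor B and factor D). C5b then recruits C6, C7, C8 and C9 into the membrane attack complex, a pore in the target membrane. In clotting, proteases of the contact, tissue factor and common routes end in thrombin, which turns fibrinogen into fibrin. Serpins and the protein C system restrain thrombin formation, and plasmin dissolves the clot. Most of these genes are expressed in hepatocytes. Factor VIII comes from endothelial cells, and properdin from leukocytes.

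The livers came from male mice aged 4 weeks. All carried Rosa26-rtTA, a broadly expressed doxycycline-dependent activator. The 4 controls had rtTA alone, 3 livers had rtTA with SOD2 shRNA 1 and 3 had rtTA with SOD2 shRNA 2. Dams were fed doxycycline chow at 625 mg/kg over embryonic days 0 to 12.5, as the labels state for all 10 samples, and the livers were taken after it had ended. The 6 shRNA livers are called adapted, as in the labels. Of the controls, 3 were littermates of the shRNA 2 cohort and 1 of the shRNA 1 cohort, without a statement of which, so that hairpin and cohort cannot be told apart, neither against control nor between the hairpins. Nothing in the labels says that samples of a group are separate animals, and p-values then measure only the spread between these samples.

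The arrays had medians of log2 4.06 to 4.17. Sod2 itself lay between 10.33 and 10.49 in the controls, 10.32 and 10.43 in the shRNA 1 livers and 10.24 and 10.47 in the shRNA 2 livers. The hepatocyte marker Alb lay between 13.70 and 13.82 in all arrays, at the upper end of all array values (highest 13.82). Whether differences are compressed at that level was not tested. The 11 measured hepatocyte markers summed to log2 16.43 to 16.46 in controls, 16.51 to 16.54 in shRNA 1 livers and 16.43 to 16.47 in shRNA 2 livers. These markers did not move evenly: their differences of shRNA 1 from control ran from -0.09 to 0.54, with a median of 0.04. The neutrophil gene S100a8 (2.40 to 2.81) and the fat cell gene Adipoq (2.51 to 2.97) stayed under the level filter of log2 3.98. Of the 8 listed fat cell markers, however, 5 passed that filter. In whole tissue, fewer cells of a type and less RNA per cell cannot be told apart.

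The lowest values relative to control were found among genes of the membrane attack complex, mainly in shRNA 1 livers. Their promoters are shown first, because C6, C8a, C8b and C9 were low in the same livers. C6 and C9 both lie on chromosome 15, and C8a and C8b are neighbours on chromosome 4. Each sequence runs 5′ to 3′ from 250 bases before to 50 after the start of the gene, from RefSeq (GRCm38.p6), at chr15:4726960-4727259 on the + strand for C6, chr4:104876349-104876648 on the - strand for C8a, chr4:104766067-104766366 on the + strand for C8b and chr15:6445096-6445395 on the + strand for C9. Capitals mark matches, on either strand, to GTTAAT (part of the HNF1 site), TGTTTNC (FOXA), TGNACTTTG (HNF4), TTGCNNCAA (C/EBP) and TTCNNNGAA (STAT), motifs of factors that act on liver genes.
C6: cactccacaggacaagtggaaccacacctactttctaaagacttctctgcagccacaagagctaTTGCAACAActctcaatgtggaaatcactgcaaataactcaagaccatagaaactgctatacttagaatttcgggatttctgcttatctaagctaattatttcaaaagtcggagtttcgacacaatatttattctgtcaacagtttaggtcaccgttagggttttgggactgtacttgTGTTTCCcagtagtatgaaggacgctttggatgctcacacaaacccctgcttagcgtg
C8a: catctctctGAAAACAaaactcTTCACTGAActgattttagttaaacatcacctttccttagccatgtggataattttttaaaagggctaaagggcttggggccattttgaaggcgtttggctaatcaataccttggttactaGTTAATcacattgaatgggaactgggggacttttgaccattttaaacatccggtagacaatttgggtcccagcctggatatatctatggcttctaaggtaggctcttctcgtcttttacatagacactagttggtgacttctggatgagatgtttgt
C8b: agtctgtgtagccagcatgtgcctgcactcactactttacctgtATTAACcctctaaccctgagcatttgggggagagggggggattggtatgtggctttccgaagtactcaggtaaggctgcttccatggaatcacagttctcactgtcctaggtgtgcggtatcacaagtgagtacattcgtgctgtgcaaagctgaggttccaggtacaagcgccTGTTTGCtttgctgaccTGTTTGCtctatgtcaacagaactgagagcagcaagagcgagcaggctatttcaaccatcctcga
C9: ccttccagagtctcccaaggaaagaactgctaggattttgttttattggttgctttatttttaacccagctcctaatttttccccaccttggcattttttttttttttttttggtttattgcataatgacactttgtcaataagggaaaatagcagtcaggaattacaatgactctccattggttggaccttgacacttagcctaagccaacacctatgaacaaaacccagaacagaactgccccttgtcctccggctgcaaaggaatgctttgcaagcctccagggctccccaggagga
The C8a and C8b promoters both hold a GTTAAT and a TGTTTNC match. The C6 promoter holds TTGCAACAA and a TGTTTNC match, and the C9 window holds none of the 5 motifs. The window of C8g, which was not low in these livers, also had 0 matches. That of Hc, which was lower in shRNA 1 livers, had 1, to GTTAAT. RefSeq promoters were matched for 29 of the 38 measured genes, with the first listed start used for each. GTTAAT was present in 11 of the 29 (37.9%), against 7.2% of 27025 promoters of the same length, and TGTTTNC in 12 (41.4%), against 20.5%. TTGCNNCAA was found in 2 of them (6.9%), those of Fga and C6, against 2.12% of all. TTCNNNGAA was found in 6 (20.7%), against 8.47%, and TGNACTTTG in 2 (6.9%), against 1.41%. A match describes the letters and is not evidence of binding, and these shares carry no test.

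The first comparison asked whether the genes differed between adapted and control livers. None of the 38 passed an adjusted p of 0.05 (limma, Benjamini-Hochberg over 13308 genes), against 0.00751% of all genes tested. At an unadjusted p under 0.05, 5 complement genes and 1 clotting gene were lower and 0 were higher, where 3.51% of all genes were lower and 4.86% higher. The 5 were C9, C8a, C8b, C6 and Mbl1, and the clotting gene was Serpina10. The median difference was -0.06 over the 15 complement genes and 0.00 over the 23 clotting genes, against 0.01 over all genes tested. Means were lower for 9 of 15 complement and 12 of 23 clotting genes, against 48.0% of all. Adapted and control values did not overlap for 2 genes, Fga on the lower side (0.842% of all genes) and Serpinc1 on the higher side (1.04% of all).

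The hairpins were then set apart, both against the same 4 controls. In shRNA 1 livers 0 of 38 genes passed the adjusted threshold, as did 0.0% of all genes. At an unadjusted p under 0.05, 6 complement and 2 clotting genes were lower (3.32% of all genes), and 1 clotting gene was higher (4.57% of all). Values of shRNA 1 and control livers did not overlap for 12 genes that were lower, 6 in each group, against 3.82% of all genes, and for 2 that were higher, against 5.07%. The median difference was -0.13 for complement and -0.03 for clotting, against 0.01 over all genes, and 12 of 15 and 18 of 23 means were lower, against 47.6% of all. In shRNA 2 livers 0 of 38 passed, against 0.00751% of all genes. There 1 gene was lower at an unadjusted p under 0.05 (3.46% of all) and 3 were higher (4.14% of all). Values did not overlap for 1 lower gene (3.41% of all) and for 5 higher genes (3.88% of all). The shRNA 2 medians were 0.01 for complement and 0.04 for clotting, with 7 of 15 and 7 of 23 means lower, against 48.8% of all.

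The direct comparison of the hairpins, which is also a comparison of their cohorts, called 0 of 38 genes, against 0.015% of all. At an unadjusted p under 0.05, 4 complement and 2 clotting genes were lower in shRNA 1 than in shRNA 2 livers (2.7% of all genes) and 0 were higher (3.32% of all). Values did not overlap for 17 of 38 genes that were lower in shRNA 1, against 5.36% of all genes, and for 0 that were higher, against 5.94%. Means were lower for 13 of 15 complement genes and 20 of 23 clotting genes, against 48.9% of all, with medians of -0.17 and -0.11. Neighbouring and co-secreted genes share their samples, so these counts are not independent observations.

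**Figure D1:**
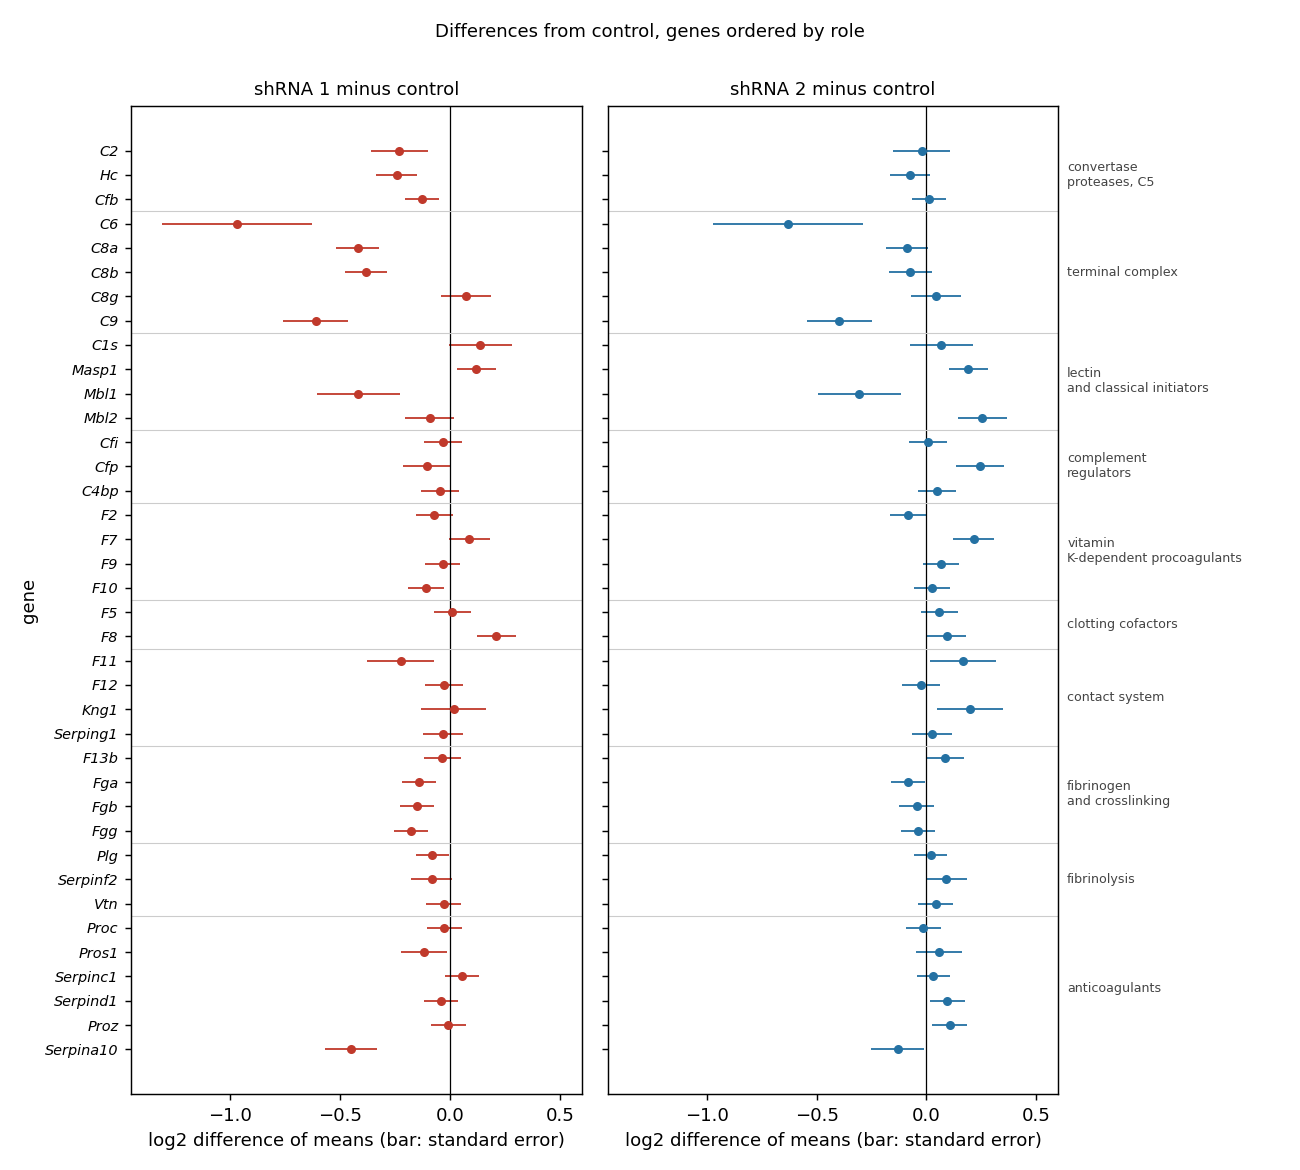
Difference of group means from the 4 controls on the log2 scale for the 38 measured genes, in rows ordered by role, for shRNA 1 (left) and shRNA 2 (right); points are differences and bars the standard errors of the limma fit. C6 (-0.97), C9 (-0.61), Serpina10 (-0.45) and C8a (-0.42) lie farthest below 0 in shRNA 1 livers, and both panels use the same controls.

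Among the pore-forming components, C6 showed the widest differences. It encodes the protein that joins C5b to begin the membrane attack complex. C6 was at log2 9.56, 8.96, 9.11 and 8.61 in controls, at 8.13, 8.11 and 8.03 in shRNA 1 livers and at 8.97, 8.97 and 7.35 in shRNA 2 livers. With shRNA 1, C6 lay below every control. In the shRNA 2 group, replicates 1 and 2 were within the control range and replicate 3 was the lowest of all arrays. The shRNA 1 mean of 8.09 ± 0.05 (SD, n = 3) was 1.96-fold lower than the control mean of 9.06 ± 0.39 (SD, n = 4), a log2 difference of -0.97 with a standard error of 0.34 and a limma adjusted p of 0.491. For all adapted livers the difference was -0.80 (adjusted p = 0.504 in limma, exact two-sided permutation p = 0.0524), and without shRNA 2 replicate 3 it was -0.53. The shRNA 2 difference of -0.63 (adjusted p = 0.720, limma) was -0.09 without that liver.

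C8 consists of an alpha and a beta chain, encoded by C8a and C8b, which belong to the same protein family as C6 and C9, and a gamma chain, encoded by C8g, which belongs to the lipocalins. C8a was at 11.46, 11.34, 11.36 and 11.28 in controls, at 10.93, 10.98 and 10.90 in shRNA 1 livers and at 11.38, 11.35 and 11.08 in shRNA 2 livers. All 3 shRNA 1 livers were below all other arrays. The difference of shRNA 1 from control was -0.42 with a standard error of 0.10, or 1.34-fold lower, with the smallest unadjusted p of the 38 genes (9.49e-04) and an adjusted p of 0.233 in limma. The exact permutation p was 0.0286, the smallest that 3 against 4 samples allow. Between the hairpins the difference was -0.33 (adjusted p = 0.687).

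C8b had nearly the same pattern. Its values were 12.37, 12.28, 12.36 and 12.10 in controls, 11.89, 11.92 and 11.88 in shRNA 1 livers and 12.22, 12.32 and 12.07 in shRNA 2 livers. Again the shRNA 1 livers were the lowest of all arrays, and control replicate 4 and shRNA 2 replicate 3 came next. The difference of shRNA 1 from control was -0.38 with a standard error of 0.10 (adjusted p = 0.305, limma), and that of shRNA 2 was -0.07 (adjusted p = 0.889), or between -0.133 and -0.008 with 1 sample left out, the latter without shRNA 2 replicate 3. C8g, whose product is bound to the alpha chain, lay between 10.79 and 11.23 in controls, 11.05 and 11.16 in shRNA 1 and 10.95 and 11.17 in shRNA 2 livers. These ranges overlapped, and the difference of shRNA 1 from control was 0.07 with a standard error of 0.11.

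C9, whose product polymerises into the wall of the pore, was at 11.66, 11.56, 11.59 and 11.08 in controls, at 10.65, 10.93 and 10.996 in shRNA 1 livers and at 11.22, 11.10 and 10.91 in shRNA 2 livers. Controls 1 to 3 lay above all 6 adapted livers, and control replicate 4 lay among the shRNA 2 livers. The adapted mean was 10.97 ± 0.19 (SD, n = 6) against 11.47 ± 0.26 (SD, n = 4), a difference of -0.50 with a standard error of 0.12 (adjusted p = 0.297 in limma, exact permutation p = 0.0143). It was the smallest adjusted p of the 38 genes in this comparison. Against the shared controls, C9 stood at -0.61 with shRNA 1 (1.53-fold lower) and at -0.40 with shRNA 2 (1.32-fold lower).

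Hc encodes C5, the precursor of the C5b fragment that starts the pore. Its values were 12.10, 11.996, 11.96 and 11.78 in controls, 11.71, 11.76 and 11.68 in shRNA 1 livers and 11.87, 11.94 and 11.84 in shRNA 2 livers. The shRNA 1 livers were below all other arrays, by a narrow gap to control replicate 4. The difference of shRNA 1 from control was -0.24 with a standard error of 0.09 (adjusted p = 0.537, limma).

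**Figure D2:**
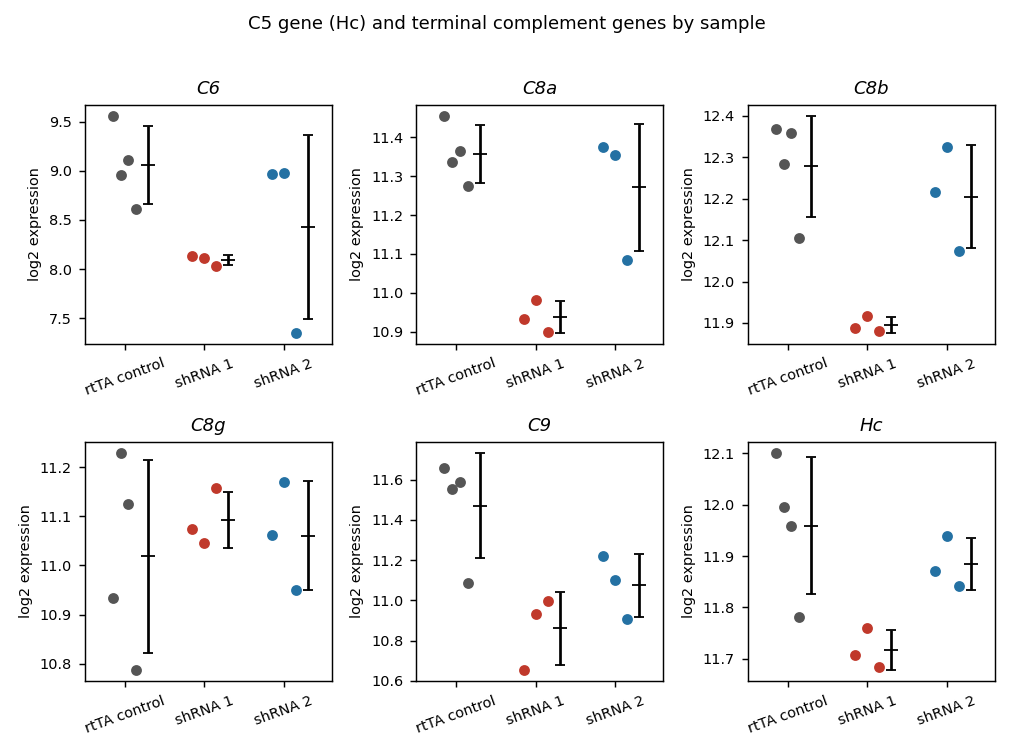
Log2 expression of Hc (C5) and of the 5 listed genes of the membrane attack complex in each liver. Points are samples and black bars the group mean and SD (n = 4, 3 and 3). Each panel has its own axis that does not start at 0. The shRNA 1 livers lie below every control for C6, C8a, C8b, C9 and Hc but not for C8g, and shRNA 2 replicate 3 is the lowest value for C6 (7.35).

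Other gene groups had a partly similar order of samples. Male-biased liver genes, a list of 17, had sample medians relative to the control mean of 0.00, 0.07, 0.22 and -0.47 in controls, -0.58, -0.41 and -0.49 in shRNA 1 livers and 0.02, -0.24 and -1.37 in shRNA 2 livers. The 5 listed genes of the membrane attack complex had medians of 0.10, 0.01, 0.08 and -0.23, then -0.43, -0.38 and -0.46, then -0.06, 0.00 and -0.28, in the same order of samples. Thus control replicate 4 was the lowest control and shRNA 2 replicate 3 the lowest shRNA 2 liver in both. Acute phase plasma proteins, 18 genes, had medians of 0.07, 0.27, -0.04 and -0.36 in controls, -0.33, -0.38 and -0.37 in shRNA 1 livers and 0.06, 0.04 and -0.28 in shRNA 2 livers. The part of either in the complement values was not tested.

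Of the convertase proteases, C2 differed by about as much as Hc and Cfb by less. C2, which supplies the protease of the classical convertase, lay between 8.34 and 8.76 in controls, 8.10 and 8.49 in shRNA 1 and 8.41 and 8.69 in shRNA 2 livers. These ranges overlapped, with a difference of shRNA 1 from control of -0.23 (standard error 0.13, adjusted p = 0.723, limma) and from shRNA 2 of -0.21 (adjusted p = 0.909). Cfb, its counterpart in the alternative pathway and its neighbour on chromosome 17, was at 11.75, 11.72, 11.71 and 11.66 in controls, 11.56, 11.55 and 11.62 in shRNA 1 livers and 11.72, 11.69 and 11.75 in shRNA 2 livers. For Cfb the shRNA 1 livers were below all others, but by little: the difference from control was -0.13 with a standard error of 0.08 (adjusted p = 0.741, limma).

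Genes that start the lectin and classical pathways went in both directions. Mbl1 encodes mannose-binding lectin A. It was at 9.44, 10.18, 10.09 and 10.03 in controls, 9.52, 9.54 and 9.50 in shRNA 1 livers and 9.67, 9.97 and 9.26 in shRNA 2 livers. Control replicate 1 was as low as the shRNA 1 livers, so the groups overlapped (shRNA 1 minus control -0.42, adjusted p = 0.622, limma). Mbl2, which encodes mannose-binding lectin C, was at 10.03, 9.98, 10.11 and 9.89 in controls, 9.92, 9.98 and 9.84 in shRNA 1 livers and 10.10, 10.15 and 10.52 in shRNA 2 livers. It was higher in every shRNA 2 than in every shRNA 1 liver, with a difference between the hairpins of -0.34 (standard error 0.12, adjusted p = 0.723). Replicate 3 was low for Mbl1 and high for Mbl2 among the shRNA 2 livers.

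Masp1, a protease carried by these lectins, was at 9.95, 10.08, 10.15 and 10.08 in controls, 10.14, 10.13 and 10.27 in shRNA 1 livers and 10.20, 10.22 and 10.35 in shRNA 2 livers. The shRNA 2 livers were above all controls, and the adapted difference was 0.15 with a standard error of 0.07 (adjusted p = 0.618 in limma, exact permutation p = 0.0190). C1s, the protease of the C1 complex, ranged from 5.48 to 6.12 over all arrays with overlapping groups.

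Of the complement regulators, Cfp encodes properdin, which stabilises the alternative convertase. It was at 8.14, 8.06, 8.07 and 7.93 in controls, 7.91, 7.85 and 8.08 in shRNA 1 livers and 8.50, 8.28 and 8.11 in shRNA 2 livers. Every shRNA 2 liver exceeded every shRNA 1 liver (difference -0.35, standard error 0.12, adjusted p = 0.690, limma). Markers of Kupffer cells and macrophages, all 12 measured, summed to log2 11.97 to 12.17 in controls, 11.97 to 12.15 in shRNA 1 livers and 12.02 to 12.36 in shRNA 2 livers, with the highest sum in shRNA 2 replicate 1, where Cfp was highest. The part of these cells in the Cfp values was not tested. Cfi, the protease that inactivates C3b and C4b, lay between 11.93 and 12.11 in all arrays, and C4bp, its cofactor, between 11.45 and 11.68.

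Among the 23 clotting genes, the largest difference from control belonged to an inhibitor. Serpina10 encodes the protein Z-dependent protease inhibitor, which blocks factor Xa with protein Z as cofactor. Serpina10 was at 10.97, 11.08, 11.04 and 10.62 in controls, 10.49, 10.41 and 10.53 in shRNA 1 livers and 10.94, 10.72 and 10.73 in shRNA 2 livers. All 3 livers with shRNA 1 were below all other arrays, and control replicate 4 came next. The shRNA 1 mean of 10.48 ± 0.06 (SD, n = 3) was 1.37-fold lower than the control mean of 10.93 ± 0.21 (SD, n = 4), a difference of -0.45 with a standard error of 0.12 (adjusted p = 0.329, limma). For shRNA 2 it was -0.13 (adjusted p = 0.842), or between -0.234 and -0.080 with 1 sample left out (control replicate 4 and control replicate 2). Proz, the gene of its cofactor, lay between 10.96 and 11.02 in controls, 10.96 and 10.99 in shRNA 1 and 10.99 and 11.14 in shRNA 2 livers, so the cofactor's transcript did not share the lower values.

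The other anticoagulant genes lay close to control. Serpinc1, the gene of antithrombin, was at 12.35, 12.34, 12.32 and 12.32 in controls, 12.35, 12.42 and 12.39 in shRNA 1 livers and 12.35, 12.37 and 12.37 in shRNA 2 livers. All 6 adapted livers were above all controls, by a difference of only 0.04 with a standard error of 0.06 (adjusted p = 0.903 in limma, exact permutation p = 0.0095). Proc (protein C), Pros1 (its cofactor protein S) and Serpind1 (heparin cofactor II) differed from control by -0.03, -0.12 and -0.04 in shRNA 1 livers and by -0.02, 0.06 and 0.10 in shRNA 2 livers.

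Fibrinogen is a hexamer of paired alpha, beta and gamma chains, encoded by Fga, Fgb and Fgg, which are neighbours on chromosome 3. Fga was at 12.44, 12.55, 12.49 and 12.49 in controls, 12.39, 12.35 and 12.32 in shRNA 1 livers and 12.39, 12.44 and 12.39 in shRNA 2 livers. All adapted livers were below all controls, but the nearest values of both groups round to the same 12.44. The adapted difference was -0.11 with a standard error of 0.07 and an adjusted p of 0.681 in limma, while the exact permutation p was 0.0048, the smallest that 6 against 4 samples allow. Fgb was at 13.36, 13.41, 13.32 and 13.37 in controls and at 13.22, 13.20 and 13.21 in shRNA 1 livers, and its shRNA 2 values of 13.25, 13.37 and 13.33 reached the controls. Fgg was at 13.33, 13.40, 13.30 and 13.30 in controls, 13.16, 13.14 and 13.16 in shRNA 1 livers and 13.26, 13.33 and 13.29 in shRNA 2 livers. For each of the 3 chains the shRNA 1 livers were thus below all other arrays. Their differences from control were -0.14, -0.15 and -0.18, no more than 1.13-fold, with adjusted p-values of 0.713, 0.684 and 0.591 in limma. F13b, the carrier subunit of the enzyme that crosslinks fibrin, lay between 10.07 and 10.29 in all arrays.

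Procoagulant factors that depend on vitamin K gave small differences. F7, which encodes the protease that starts clotting with tissue factor, was at 10.31, 10.26, 10.20 and 10.12 in controls, 10.19, 10.37 and 10.37 in shRNA 1 livers and 10.54, 10.40 and 10.36 in shRNA 2 livers. F7 exceeded the highest control in the 3 shRNA 2 livers and in 2 of those with shRNA 1, with a difference for shRNA 2 of 0.21 (standard error 0.09, adjusted p = 0.637, limma). F10, a close neighbour of F7 on chromosome 8, was at 10.67, 10.62, 10.70 and 10.68 in controls, 10.56, 10.53 and 10.58 in shRNA 1 livers and 10.67, 10.61 and 10.80 in shRNA 2 livers. F10 was lowest with shRNA 1 (difference -0.11, adjusted p = 0.802, limma). F2 (prothrombin) and F9 (factor IX) differed from control by -0.07 and -0.03 in shRNA 1 livers and by -0.08 and 0.07 in shRNA 2 livers.

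The cofactor gene F8, whose product carries factor IXa activity on membranes, was at 8.50, 8.64, 8.62 and 8.59 in controls, 8.86, 8.78 and 8.76 in shRNA 1 livers and 8.61, 8.81 and 8.62 in shRNA 2 livers. The shRNA 1 livers were above all controls (difference 0.21, standard error 0.09, adjusted p = 0.572, limma). The 11 markers of sinusoidal endothelium, all measured, summed to log2 12.19 to 12.29 in controls, 12.37 to 12.39 in shRNA 1 livers and 12.25 to 12.32 in shRNA 2 livers. The part of endothelial cells in the F8 values was not tested. F5, the hepatocyte-made cofactor of factor Xa, lay between 11.27 and 11.44 in all arrays.

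**Figure D3:**
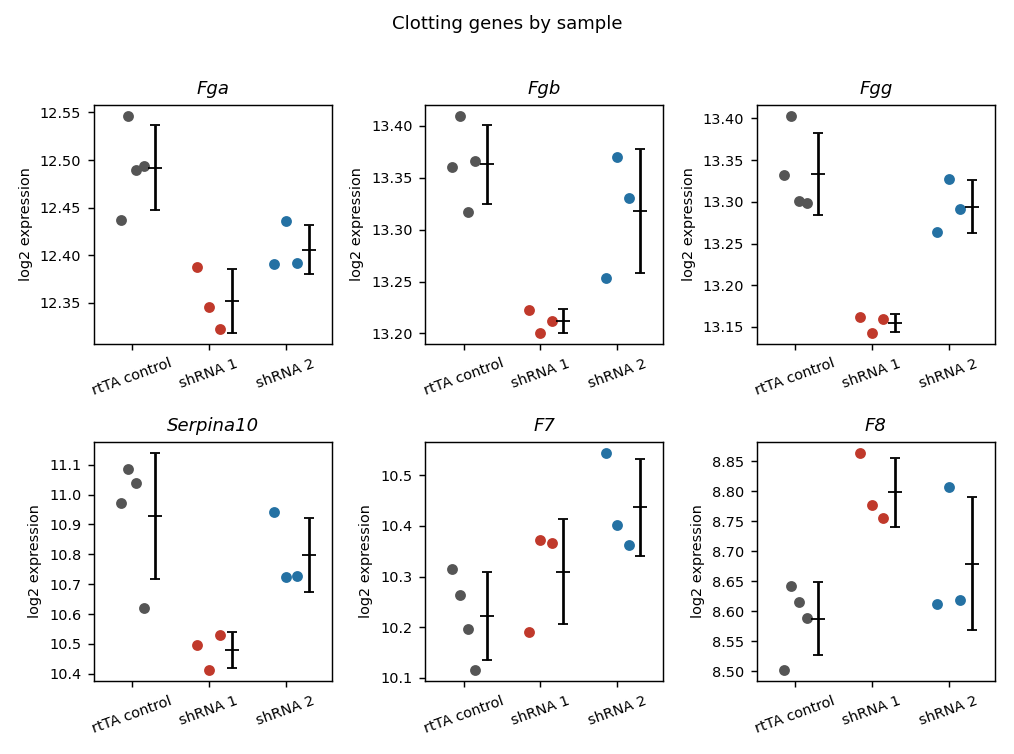
Log2 expression of the 3 fibrinogen chain genes, Serpina10, F7 and F8 in each liver, with points for samples and black bars for the group mean and SD (n = 4, 3 and 3), each panel on its own axis that does not start at 0. The shRNA 1 livers lie below all controls for Fga, Fgb, Fgg and Serpina10 and above all controls for F8, and the fibrinogen differences span less than 0.2 on the log2 scale.

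In the contact system, F11 (factor XI) had a wide spread, at 10.50, 10.07, 10.21 and 9.99 in controls, 10.29, 9.76 and 9.84 in shRNA 1 livers and 10.22, 10.39 and 10.46 in shRNA 2 livers. Its groups overlapped (shRNA 1 minus shRNA 2 -0.39, standard error 0.16, adjusted p = 0.784, limma). Kng1, the gene of high-molecular-weight kininogen, lay between 10.40 and 10.66 except in shRNA 2 replicate 3, at 11.17. The paralogue Kng2 was also highest there, at 10.96, and probes of such similar genes may not tell them apart. F12 (factor XII) and Serping1 (C1 inhibitor, which acts on both C1 and the contact proteases) differed from control by at most 0.03 in either shRNA group. Of the fibrinolysis genes, Plg (plasminogen) was at 12.52, 12.46, 12.45 and 12.47 in controls, 12.37, 12.38 and 12.43 in shRNA 1 livers and 12.49, 12.47 and 12.51 in shRNA 2 livers. Plg was lowest with shRNA 1, with a difference of -0.08 (adjusted p = 0.868, limma). Serpinf2 (the plasmin inhibitor) and Vtn (vitronectin) differed by -0.08 and -0.03 in shRNA 1 and by 0.09 and 0.04 in shRNA 2 livers.

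**Figure D4:**
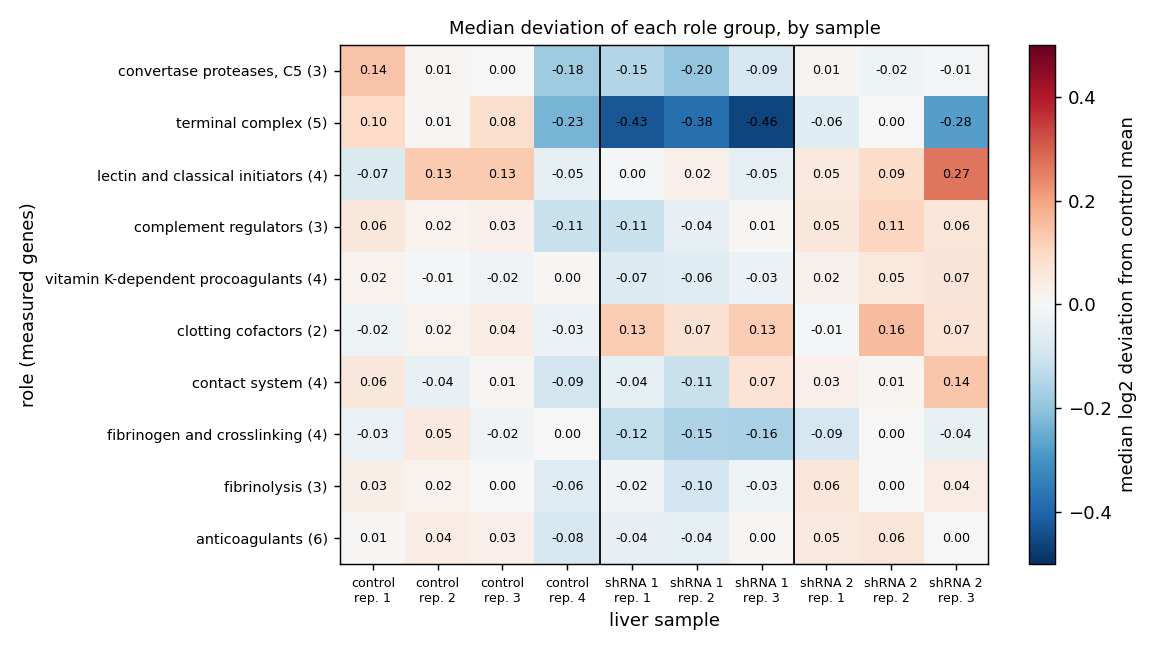
Median log2 deviation from the control mean over the measured genes of each role group (rows, with the number of genes) in each of the 10 livers (columns), as colour and number. The listed genes of the membrane attack complex (terminal complex) stand at -0.38 to -0.46 in the shRNA 1 livers. They stand at -0.23 in control replicate 4 and at -0.28 in shRNA 2 replicate 3. The fibrinogen and crosslinking group stands at -0.12 to -0.16 in shRNA 1 livers.

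Further lists of genes of the same systems were read in the same fit. The further complement list of 35 genes held C1s again, under its symbol C1s1. Of these 35 genes 27 were tested, C1s1 among them, and 0 passed the adjusted threshold in any comparison. At an unadjusted p under 0.05 in adapted livers 2 of the 27 were higher and 0 lower, where 4.86% of all genes were higher and 3.51% lower. Cd59a, which blocks C9 insertion on host cells, stood at 8.98 in controls, 9.35 in shRNA 1 and 9.36 in shRNA 2 livers (adapted minus control 0.38, standard error 0.11, adjusted p = 0.427, limma). Vsig4, a C3b receptor of Kupffer cells, was at 0.24 (adjusted p = 0.464), and C4b, the substrate of the C1 and lectin proteases, was at -0.18 (adjusted p = 0.626). C7, a component of the membrane attack complex outside the listed genes, was at 4.65, 4.97, 4.70 and 4.45 in controls. It was at 4.23, 4.88 and 4.75 in shRNA 1 livers and at 4.51, 4.73 and 4.57 in shRNA 2 livers. These ranges overlapped.

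Of 33 further clotting genes 26 were tested and 0 passed in any comparison, with 2 higher (4.86% of all genes) and 1 lower (3.51% of all) at an unadjusted p under 0.05 in adapted livers. The lower one was Fgl1, a secreted fibrinogen-like hepatocyte protein. Fgl1 was at 11.23, 11.33, 11.19 and 10.88 in controls, 10.49, 10.36 and 10.35 in shRNA 1 livers and 11.25, 11.22 and 11.06 in shRNA 2 livers. Values with shRNA 1 were the lowest, as for the fibrinogen chains. They differed from control by -0.76 (standard error 0.11, adjusted p = 0.0525, limma), and the direct difference between the hairpins was -0.78 (standard error 0.12, adjusted p = 0.0821, limma). Procr, the endothelial protein C receptor, stood at 0.34 in adapted livers (adjusted p = 0.353).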

How the data were processed

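Liver RNA of 10 samples was read on 10 one-colour Affymetrix mouse gene arrays. The deposited log2 values per transcript cluster were made with Affymetrix Expression Console, per the submitters' processing notes. Its version, the background correction, the normalization and the build are, in the sources used here, not given, and the values were used as deposited. Of 41345 clusters, 23521 carried 1 gene symbol in the platform annotation. The cluster with the highest mean stood for a gene, and 13308 genes at or above the 40th percentile of mean expression (log2 3.98) were tested.

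One limma fit (3.58.1, R 4.3.3) over 4 control, 3 shRNA 1 and 3 shRNA 2 samples gave all comparisons, two-sided, with Benjamini-Hochberg adjustment and a threshold of 0.05. The fit was tested on simulated data. Exact permutation tests were two-sided and apply to single genes; with 3 against 3 samples their smallest p is 0.1. The number of arrays limits the precision. Genes described in full were those with an adjusted p under 0.05 in any comparison (0 genes) and those among the 5 smallest unadjusted p-values of any comparison (9 genes). From each further list up to 4 genes with the largest moderated statistic in adapted livers could be named. Sod2, Alb, S100a8, Adipoq, Kng2 and C7 were added after their values were seen. The other members followed by role, and their full values were given after these had been seen. The genes, lists and role groups were chosen with earlier results of these data known. Alternatives were other normalizations, filters, cluster rules, spread models, sample weights and samples. Figures used Python 3.11.15 and matplotlib 3.10.9.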

Additional observations from a re-analysis of the deposited data

Results flagged for a closer look

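Mbl2 was flagged because every shRNA 1 liver lay below the control mean and every shRNA 2 liver above it, with mean deviations of -0.09 and 0.25. The difference between the hairpins was -0.34, which did not pass adjustment (adjusted p = 0.723, limma). Without shRNA 2 replicate 3 it was -0.22, and the difference of shRNA 2 from control was 0.12. Mbl2 was the only 1 of 38 genes with that arrangement. The share of all tested genes with it was not counted, so the flag is a description only. For 0 of 38 genes did a control exceed Dixon's 95% critical value. The gap of control replicate 4 to the nearest other control, as a share of the control range, came close to it for Serpinf2 (0.821) and C9 (0.819).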

How the results depend on the processing

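No alternative brought any of the 38 genes past an adjusted p of 0.05 in any of the 4 comparisons, and 0 passed 0.1 in the fit as reported. The lowest adjusted p in limma was 0.059, for C8a in shRNA 1 livers with an intensity trend and robust prior. It was 0.0691, for C9, without control replicate 4 and 0.0872, for C6, without shRNA 2 replicate 3. The shift of clotting genes in shRNA 1 livers was -0.034 and went to -0.062 with quantile normalization. Same-numbered samples did not deviate together throughout (correlations of -0.25 to 0.27). Their median correlation was 0.083, against -0.015 for samples of different number. These few weak correlations cannot settle whether the numbers pair the samples. With the replicate number as a block, the clotting median of adapted livers was -0.033 (-0.004 without it) and the complement median of shRNA 2 livers -0.062 (0.006 without it). Number 4 occurs only in the controls, so the block takes control replicate 4 out of these differences. They therefore equal those found when that sample is left out, and do not show an effect of pairing. Leaving out 1 sample at a time moved the clotting median between -0.033 and 0.024 in adapted livers and between -0.074 and -0.027 in shRNA 1 livers, and the complement median of shRNA 2 livers between -0.062 and 0.024. The complement median stayed between -0.173 and -0.116 in shRNA 1 livers. C8a in shRNA 2 livers lay between -0.139 and 0.007, with the sign turned without shRNA 2 replicate 3 (0.007). The other 674 values of the 9 genes described in full kept their sign and their side of the threshold. The signs of the remaining measured genes were not followed across these alternatives. A fit of only the groups compared was not run for adapted against control, which uses all samples. The unstated normalization and the small number of arrays limit all values.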

Other observations

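Genes on a list of liver gene regulators were mostly below control. The list held transcription factors, repressors among them, the cytokine receptor genes Il6ra, Il6st and Il1r1, and the signalling inhibitor gene Socs3. Of 20 measured regulators, 18 had lower means in adapted livers, against 48.0% of all genes tested. Their median difference was -0.14, against 0.01. None passed the adjusted threshold in limma (lowest adjusted p = 0.578). At an unadjusted p under 0.05 there were 2 lower and 0 higher, where 3.51% of all genes were lower and 4.86% higher. Foxa3, a forkhead factor, was at 8.50 in controls, 8.19 in shRNA 1 and 8.19 in shRNA 2 livers (adapted minus control -0.31, adjusted p = 0.578), and Hnf4a, a nuclear receptor of hepatocytes, at 10.14, 10.01 and 9.92 (-0.18, adjusted p = 0.583). The median of the regulators was -0.15 in shRNA 1 livers, with 15 of 20 means lower (47.6% of all genes). It was -0.17 in shRNA 2 livers, with 18 of 20 lower (48.8% of all). The listed genes of the membrane attack complex had medians of -0.42 and -0.09 in these groups. The relation between both groups of genes was not tested.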
